A study of Mus musculus with 4 samples.

Results

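C-type lectin receptors of myeloid cells were examined in smooth muscle cells (SMCs) sorted from the lungs of *Tet3* mutant and control mice. The group comprised 10 genes out of 21462 in the deposited table, taken by symbol: *Clec4f*, *Cd207*, *Clec4a1*, *Clec4a2*, *Clec4a3*, *Clec4d*, *Clec4e*, *Clec4n*, *Clec7a* and *Clec10a*. These genes were selected with their difference between the genotypes already known, so their levels and fold changes are given as a description, without a test. All 10 had a mean of at least 10 normalized counts over the libraries and were among the 16659 genes fitted. *Clec4f* reached that mean only through the mutant libraries.

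TET3 turns the methylated cytosine of DNA into its hydroxymethylated form. The libraries were labelled by the genotypes Mut and WT, with 2 libraries each, each from a separate animal by the study's account, and all from the strain C57BL/6. Per its methods, mutants were *Tet3* fl/fl and carried an α-SMA ERT2Cre transgene, which is active after tamoxifen in cells that use the smooth muscle actin promoter, together with a ROSA26 tdTomato reporter. Controls had Cre, the reporter or both, and no floxed *Tet3* allele unless indicated otherwise. The study used adults of both sexes, which received tamoxifen, and the age at collection of these cells was not given in the sources used here. Loss of TET3 and the presence of the targeted chromosome 6 segment around *Tet3* therefore cannot be told apart in this comparison. Live cells were sorted by tdTomato after beads against CD45 and Ter-119 had been used to deplete blood cells, a step that bears directly on genes of myeloid cells.

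Values are normalized counts, meaning reads per gene that the authors scaled between libraries and rounded. The number of reads assigned to genes was estimated at 6.32 M to 7.56 M in a library. Values are given in the order of the replicate numbers throughout. The targeted gene *Tet3* was at 1847 and 1926 in the controls against 1534 and 1444 in the mutants, and its log2 fold change was -0.34 (standard error, SE, 0.10). The smooth muscle genes *Acta2* (686 to 1032) and *Myh11* (1330 to 2473) were abundant in each library, and so was *Ptprc*, which encodes CD45 (1364 to 2674). Control replicate 2 stood apart from the other libraries: the X-linked transcript *Xist* was at 2 there and at 5214 to 6781 elsewhere, and the Y-linked gene *Ddx3y* was at 774 there and listed at 0 elsewhere. By these genes the sex differed within the controls, which the labels do not state, and each member is given with and without control replicate 2 where that library sets its value. Over all genes fitted, limma called 0 at an adjusted p under 0.05 (0%, smallest adjusted p 0.0902), and 1112 had an unadjusted p under 0.05, 638 of them higher in the mutants.

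C-type lectin receptors bind sugars or glycolipids at the surface of microbes and of damaged cells. Some of those found on macrophages, dendritic cells, monocytes and neutrophils signal through the adaptor FcRγ, encoded by *Fcer1g*, the kinase SYK and the protein CARD9, which leads to cytokine production. Dectin-1 carries its own signalling motif, others carry an inhibitory motif, and others take up glycans or glycoproteins. CLEC4F marks Kupffer cells, the macrophages of the liver, and langerin, encoded by *Cd207*, marks Langerhans cells of the epidermis and a fraction of dendritic cells, including CD103-positive dendritic cells of the lung.

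All 10 members had a log2 fold change above 0, with a median of 0.76, whereas the median of all genes fitted was -0.01. *Clec4f* is the highest of them at its lower bound too, so the bound leaves the median as it is. Both mutants lay above both controls for 5 of the 10, namely *Clec4f*, *Cd207*, *Clec4a2*, *Clec4d* and *Clec10a*, beside 19.6% of all genes fitted. The other 5 overlapped between genotypes, since control replicate 1 was above at least 1 mutant library. At an unadjusted p under 0.05 in the limma fit there were 4 members, all higher in the mutants, beside 3.83% of all genes. No member passed the adjusted threshold, at which 0 of all genes were called. Because the members were selected on this contrast, nothing is read from these counts. In bulk RNA, more cells that express a gene and more of its RNA per cell cannot be told apart, here and in all results that follow.

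**Figure D1:**
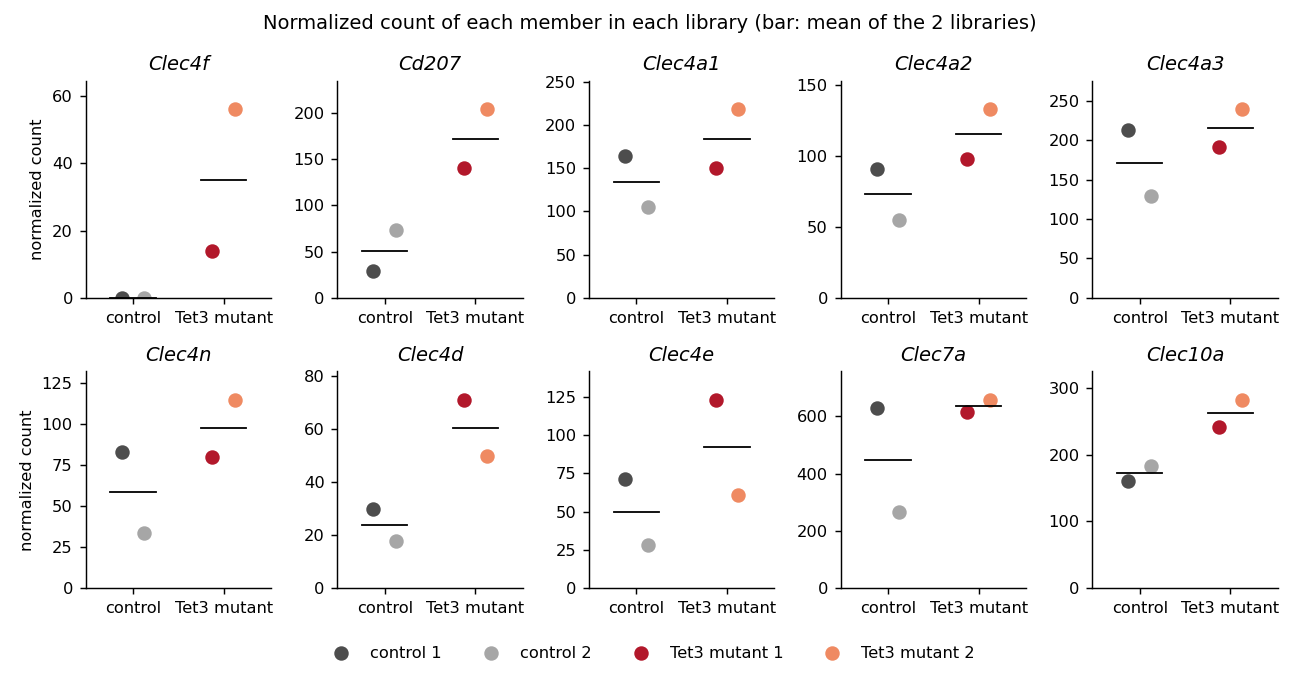
Normalized count of each of the 10 members in each library (y axis, starting at 0, with its own scale per gene). Dots are libraries and bars are the mean of the 2 libraries of a genotype. *Clec4f* is at 0 in both controls, the mutants lie above both controls for 5 genes, and control replicate 2 is the lowest library for each gene of the *Clec4a1* to *Clec4e* cluster and for *Clec7a*.

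*Clec4f* and *Cd207* lie next to each other, both on the minus strand of chromosome 6 (GRCm38), and on the same side of *Tet3*. *Clec4f* (ENSMUSG00000014542) occupies chr6:83644542-83656187 and *Cd207* (ENSMUSG00000034783) chr6:83671215-83677857, with 15.0 kb between them. *Clec4f* is 185.5 kb and *Cd207* 212.1 kb from *Tet3* (chr6:83362373-83459084). The 250 bases before the RefSeq start of each gene are shown here (build GRCm38.p6), with those of *Clec4d* and *Clec7a*, since these 4 genes stand for the patterns described in the following paragraphs. Each is written 5′ to 3′ on the strand of its gene, and ends at the base before the start. Windows are chr6:83656117-83656366 (minus) for *Clec4f*, chr6:83677858-83678107 (minus) for *Cd207*, chr6:123261857-123262106 (plus) for *Clec4d* and chr6:129472780-129473029 (minus) for *Clec7a*. Capitals mark GAGGAA, the core letters of a site of the myeloid factor PU.1, and TGANTCA, the letters of an AP-1 site, searched on both strands.
Clec4f: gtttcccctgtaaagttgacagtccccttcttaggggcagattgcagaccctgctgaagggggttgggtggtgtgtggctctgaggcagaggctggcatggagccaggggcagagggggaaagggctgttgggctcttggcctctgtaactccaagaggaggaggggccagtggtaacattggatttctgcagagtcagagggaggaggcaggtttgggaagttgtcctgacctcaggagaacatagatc
Cd207: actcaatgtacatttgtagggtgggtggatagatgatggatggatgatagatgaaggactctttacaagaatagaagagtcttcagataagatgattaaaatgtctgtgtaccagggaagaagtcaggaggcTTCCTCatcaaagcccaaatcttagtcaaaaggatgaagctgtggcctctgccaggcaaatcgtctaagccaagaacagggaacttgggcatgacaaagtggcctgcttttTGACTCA
Clec4d: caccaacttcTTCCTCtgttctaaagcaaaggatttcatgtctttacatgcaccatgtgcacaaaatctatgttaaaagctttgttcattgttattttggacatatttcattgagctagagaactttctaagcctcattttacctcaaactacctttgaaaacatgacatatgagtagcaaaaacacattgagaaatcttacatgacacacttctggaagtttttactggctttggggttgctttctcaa
Clec7a: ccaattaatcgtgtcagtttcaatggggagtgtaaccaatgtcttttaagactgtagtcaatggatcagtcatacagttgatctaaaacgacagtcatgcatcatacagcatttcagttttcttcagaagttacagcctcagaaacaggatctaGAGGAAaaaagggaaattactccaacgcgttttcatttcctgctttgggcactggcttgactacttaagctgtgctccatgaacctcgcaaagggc
The *Clec4f* window held none of these letters, nor TATAAA. The RefSeq start of *Clec4f* lies inside the gene as listed above, so its window overlaps that gene from 83656117 to 83656187. The *Cd207* window held GAGGAA on its opposite strand, beginning 118 bases before the start, and an AP-1 match in the 7 bases just before the start. *Clec4d* and *Clec7a* had 1 match to GAGGAA each. Among the 8 members with a RefSeq entry, GAGGAA was found for 6, TGANTCA for 1 and TATAAA for 2. By window, GAGGAA was in 7 of their 10, TGANTCA in 1 and TATAAA in 2. *Clec4a3* and *Clec7a* had 2 overlapping windows each. Of 32851 windows of the same length over all genes, 23.3% held GAGGAA, 6.75% TGANTCA and 12.4% TATAAA, and no matches overlapped within a member's window. A match describes the letters and does not show binding.

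*Clec4f* was listed at 0 in both controls and had 14 normalized counts in mutant replicate 1 and 56 in mutant replicate 2. The genotypes did not overlap, and the mutants differed from each other by more than the lower of them. Their mean was 35 ± 29.7 (SD, n = 2), at least 11.6-fold higher than the floor of 3 normalized counts per library that was used for a gene at 0. With mutant replicate 1 alone the bound is 4.6-fold, and with mutant replicate 2 alone 18.6-fold. The fitted log2 fold change of 4.87 depends on the constant added before taking logarithms and is no bound. *Clec4f* also had the lowest level of the members per exon length, at 7.08 normalized counts per kb on average over the libraries, a level above that of 8.10% of the genes fitted. None of its possible reads of 75 bases occurs in a transcript of another gene in GENCODE M21.

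*Cd207* had 29 and 73 normalized counts in the controls against 140 and 204 in the mutants. Both mutants were above both controls, and control replicate 1 was the lowest library. Means were 51 ± 31.1 in controls and 172 ± 45.3 in mutants (SD, n = 2 each), a ratio of 3.37. The log2 fold change was 1.85 with an SE of 0.49, and it stayed between 1.20 and 2.50 when each library was left out in turn. The smallest of these values was without control replicate 1. No 75-base read of *Cd207* is shared with another gene either.

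The next genes fitted on either side of the pair had fold changes near 0. *Stambp*, on the side of *Tet3*, had 300 and 315 in the controls against 266 and 275 in the mutants, a log2 fold change of -0.18 with an SE of 0.14. *Tex261*, on the other side, had 624 and 555 in the controls against 525 and 621 in the mutants, a log2 fold change of -0.04 with an SE of 0.14. Within 1 Mb of *Tet3*, 34 other genes were fitted, of which 11 had a log2 fold change above 0, with a median of -0.06, which was 0.01 without control replicate 2. In 7 of these genes both mutants were above both controls, beside 19.6% of all genes fitted. In 5 both were below, beside 3241 of all 16659 genes fitted. The smooth muscle actin gene *Actg2*, between *Tet3* and the pair, had 101 and 158 in the controls against 237 and 311 in the mutants. The bicarbonate transporter gene *Slc4a5*, on the far side of *Tet3*, had 255 and 652 in the controls against 60 and 175 in the mutants. The log2 fold changes of these genes were 1.10 (SE 0.28) and -1.98 (SE 0.66), each with a limma adjusted p of 0.681, and without control replicate 2 that of *Slc4a5* was -1.30. Whether the targeted segment has a part in the levels of *Clec4f* and *Cd207* was not tested.

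**Figure D2:**
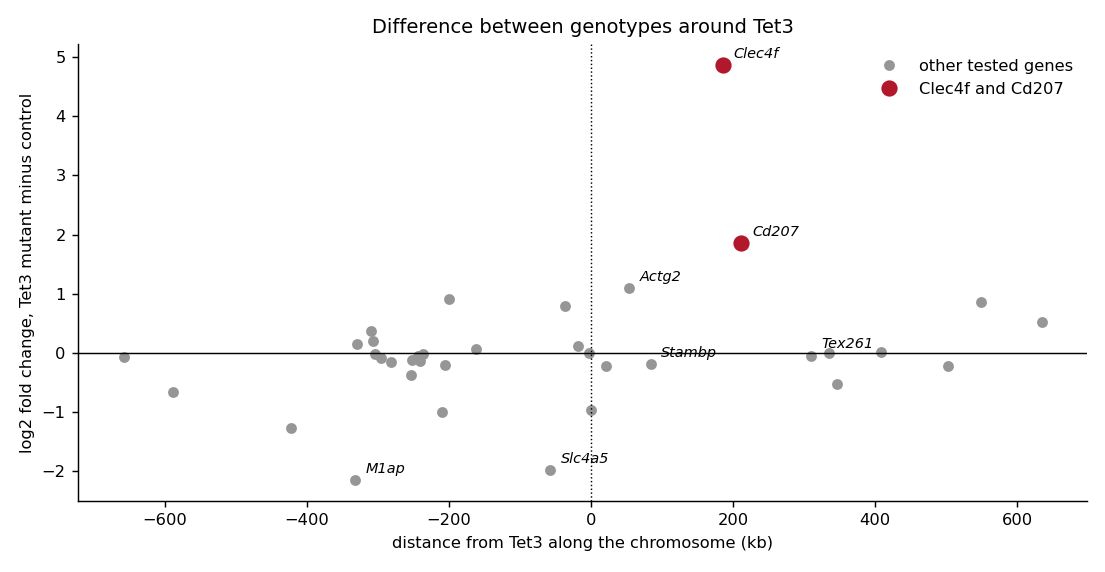
Log2 fold change, mutant minus control (y axis), of the 36 genes fitted within 1 Mb of *Tet3* against the distance of the gene from *Tet3* in kb (x axis, 0 where they overlap). Points are genes. *Clec4f* at 4.87 and *Cd207* at 1.85 are the highest points, while the genes fitted on either side of the pair, *Stambp* and *Tex261*, are near 0.

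*Clec4f* and *Cd207* each define a macrophage or dendritic cell type, so the other markers of those types were followed. Among Kupffer cell markers, *Vsig4*, a complement receptor, had 33 and 28 in the controls against 60 and 125 in the mutants (log2 fold change 1.48, SE 0.43, and 0.96 without mutant replicate 2). *Timd4*, a receptor for phosphatidylserine, had 121 and 107 in the controls against 196 and 204 in the mutants (0.81, SE 0.18). Both mutants were above both controls for this pair. *Cd5l*, a secreted protein typical of Kupffer cells, was at 4 and 24 in the controls against 4 and 1 in the mutants, below the mean needed for the fit. The 9 Kupffer cell markers fitted other than *Clec4f* had a median log2 fold change of 0.43. This median was 0.07 without control replicate 2, 0.22 without mutant replicate 2 and 0.90 without control replicate 1. Of these 9 markers, 8 had a log2 fold change above 0. In 5 both mutants were above both controls, beside 19.6% of all genes fitted. The exception in direction was *C6*, at 359 and 915 in the controls against 203 and 376 in the mutants (-1.05, SE 0.52). Its genotypes overlapped. The summed level of the list, *C6* included, was 4151 and 4027 in controls against 4162 and 4278 in mutants. Of that sum *Cdh5*, which endothelial cells also express, gave 1978 to 2407 per library.

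The other Langerhans cell markers had no common direction. The epithelial adhesion gene *Epcam* had 326 and 607 in the controls against 265 and 449 in the mutants. Of 7 Langerhans cell markers fitted other than *Cd207*, 4 had a log2 fold change above 0. In 2 both mutants were above both controls, beside 19.6% of all genes fitted, and in 0 both were below. These 2 were *Cd24a* (620 and 556 in controls, 808 and 730 in mutants) and *Runx3* (111 and 165 in controls, 185 and 207 in mutants). The median of the 7 was 0.10, and ranged from 0.01 without mutant replicate 1 to 0.19 without control replicate 1. Markers of type 1 dendritic cells were followed as well. The chemokine receptor gene *Xcr1* had 84 and 130 in the controls against 170 and 221 in the mutants (0.88, SE 0.29), and *Itgae*, which encodes CD103, had 181 and 295 in the controls against 417 and 423 in the mutants (0.86, SE 0.26). Both ranked the 4 libraries in the same order as *Cd207*, with control replicate 1 lowest and mutant replicate 2 highest. How many of all genes had this order was not counted, and *Itgae* was added after its values were seen. *Clec9a*, another marker of type 1 dendritic cells, had 107 and 179 in the controls against 178 and 175 in the mutants, so its genotypes overlapped. For 8 of the 11 markers of this type both mutants were above both controls, beside 19.6% of all genes fitted. For 1 marker, *Cadm1*, both mutants were below both controls. It had 797 and 1336 in the controls against 654 and 753 in the mutants (-0.56, SE 0.26). The median log2 fold change of the 11 was 0.32. Without control replicate 1 this median was 0.19, and the values of *Xcr1* and *Itgae* were 0.57 and 0.51. Their summed level was 5803 and 7463 in the controls against 7544 and 7612 in the mutants. As a percentage of that sum, *Cd207* was 0.50% and 0.978% in the controls against 1.86% and 2.68% in the mutants. The part of any cell type in these levels was not tested.

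Genes whose profile was most like that of *Clec4f* or *Cd207* were found by the root mean square (RMS) difference of log2 values centred on each gene, over the 4 libraries, among genes with a mean of at least 50. For *Cd207* these were *Pappa2* (RMS difference 0.28), the immunoglobulin constant gene *Ighg2c* (0.29), *Ifi211* (0.31), *Slamf7* (0.34) and *Adamts4* (0.35). *Ighg2c* had 27 and 82 in the controls against 227 and 265 in the mutants. For *Clec4f* the nearest were *Tbx20*, *Ighg2c*, *Igkv14-111*, *Neto1* and *Vsig4*, at RMS differences of 1.255 to 1.725, so none was close. These distances and the ranking depend on the constant added to its 2 controls at 0. *Clec4f* itself, with a mean of 17.5, is below the level of the genes compared. *Tbx20* (242 and 131 in the mutants) and *Neto1* (153 and 100) had more in mutant replicate 1. *Ighg2c*, *Igkv14-111* and *Vsig4* had more in mutant replicate 2, as *Clec4f* did.

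The remaining chromosome 6 members fall into the Dectin-2 cluster and *Clec7a*. *Clec4a1*, *Clec4a3*, *Clec4a2*, *Clec4n*, *Clec4d* and *Clec4e* lie in this order within 368.0 kb (chr6:122921848-123289870), 39.5 Mb from *Tet3*, and *Clec7a* (chr6:129461591-129472779) lies a further 6.17 Mb away. *Clec4e* is on the minus strand and the others of the cluster are on the plus strand. All 6 cluster members and *Clec7a* were lower in control replicate 2 than in control replicate 1, at 39.4% to 64.0% of its value. Over all genes fitted, 48.9% were lower in control replicate 2.

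*Clec4d* and *Clec4e* encode MCL and Mincle, a pair of receptors for mycobacterial glycolipids that signal through FcRγ. *Clec4d* had 30 and 18 normalized counts in the controls against 71 and 50 in the mutants, and both mutants were above both controls. Its ratio of means was 2.52 and its log2 fold change was 1.32 with an SE of 0.41, the highest of the cluster. Without control replicate 2 it was 0.97. *Clec4e* had 71 and 28 in the controls against 123 and 61 in the mutants, so the genotypes overlapped. Its log2 fold change was 0.94 with an SE of 0.58, with 0.28 without control replicate 2 and 0.44 without mutant replicate 1. These were the only members with more in mutant replicate 1 than in mutant replicate 2. All 8 neutrophil markers fitted were likewise higher in mutant replicate 1 than in mutant replicate 2, but the share of all genes with this order was not counted. The summed level of these 8 markers was 1120 and 836 in the controls against 2037 and 1363 in the mutants. Among them *Csf3r*, the receptor for granulocyte colony-stimulating factor, had 314 and 256 in the controls against 690 and 327 in the mutants, and the calcium-binding protein gene *S100a8* had 64 and 49 in the controls against 108 and 89 in the mutants. As a percentage of the neutrophil sum, *Clec4d* was 2.68% and 2.15% in the controls against 3.49% and 3.67% in the mutants, and *Clec4e* was 6.34% and 3.35% in the controls against 6.04% and 4.48% in the mutants. The part of neutrophils in these values was not tested.

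*Clec4n* encodes Dectin-2, a receptor for fungal mannans that signals through FcRγ. It had 83 and 34 in the controls against 80 and 115 in the mutants, and control replicate 1 lay between the mutants. Its log2 fold change of 0.84 (SE 0.49) became 0.21 without control replicate 2. *Clec4a2* encodes DCIR1, which carries an inhibitory motif, and had 91 and 55 in the controls against 98 and 133 in the mutants. Both mutants were above both controls, by 7 normalized counts for the nearest pair, and the log2 fold change of 0.68 (SE 0.34) became 0.32 without control replicate 2. Of its possible 75-base reads, 3.24% also occur in the neighbouring genes *Clec4a4* or *Clec4b1*. *Clec4a1* and *Clec4a3* encode relatives of DCIR1. *Clec4a1* had 164 and 105 in the controls against 150 and 218 in the mutants, and *Clec4a3* had 213 and 129 in the controls against 191 and 239 in the mutants. For both, mutant replicate 1 was below control replicate 1. Their log2 fold changes of 0.46 (SE 0.31) and 0.36 (SE 0.29) became 0.14 and 0.00 without control replicate 2, and 0.19 and 0.20 without mutant replicate 2.

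*Clec7a* encodes Dectin-1, the receptor for fungal β-glucan, and is listed in the table as a polymorphic pseudogene. It had the highest level of the members per exon length, and was at 629 and 266 normalized counts in the controls against 613 and 657 in the mutants. Control replicate 1 was level with the mutants and control replicate 2 alone was low. The log2 fold change of 0.63 (SE 0.41) became 0.01 without control replicate 2 and 1.25 without control replicate 1.

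*Clec10a* is on chromosome 11 (chr11:70156197-70170834, plus strand) and encodes MGL1, a galactose-type lectin of macrophages and type 2 dendritic cells. It had 161 and 183 in the controls against 241 and 282 in the mutants. The controls were close to each other and both were below both mutants, with means of 172 ± 15.6 and 261.5 ± 29.0 (SD, n = 2 each). The log2 fold change of 0.60 (SE 0.18) stayed between 0.49 and 0.71 when each library was left out in turn, the narrowest such range of the members with a level above 0 in the controls. Its paralog *Mgl2*, with which it shares 4.44% of its 75-base reads, had 602 and 603 in the controls against 631 and 794 in the mutants.

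**Figure D3:**
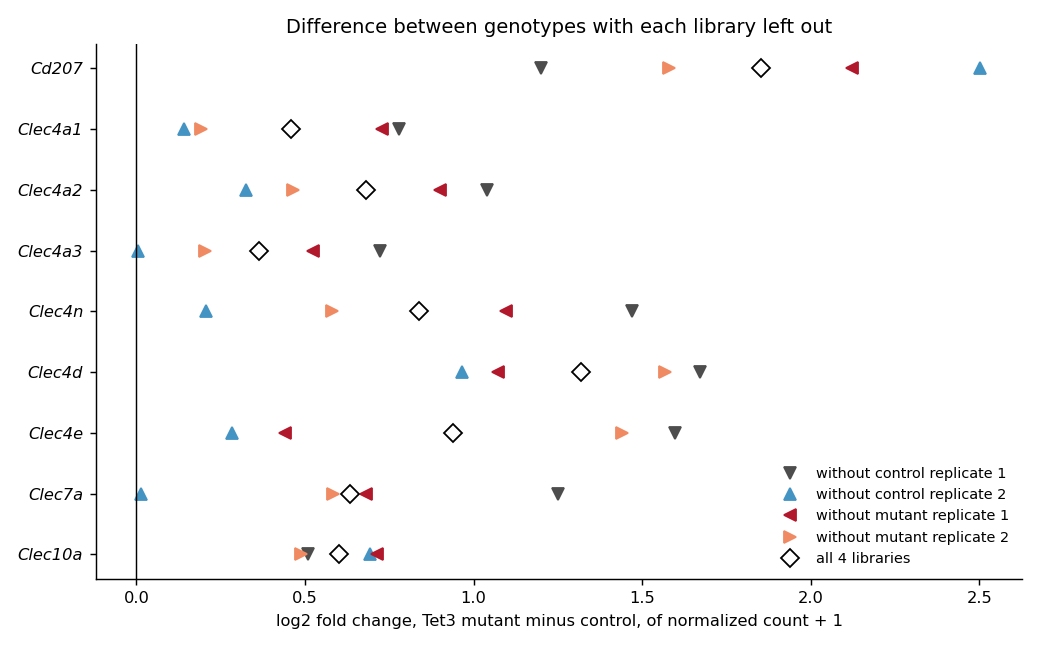
Log2 fold change, mutant minus control, of normalized count + 1 (x axis) for 9 members with all 4 libraries (diamonds) and with each library left out (triangles). *Clec4f* is not drawn. Without control replicate 2 the values of *Clec4a3* and *Clec7a* are 0.00 and 0.01, while *Cd207* is at 2.50 and *Clec10a* at 0.69.

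Leaving out control replicate 2 changed the members unequally. The median log2 fold change of the 10 went from 0.76 to 0.30, and 4 of them, *Clec4f*, *Cd207*, *Clec4d* and *Clec10a*, stayed at 0.5 or more. Leaving out control replicate 1 gave a median of 1.23. Markers of alveolar macrophages, which line the air spaces and carry Dectin-1, differed between the controls in the same direction as *Clec7a*. All 12 were lower in control replicate 2, with a median log2 difference between the controls of -1.29. The lectin gene *Siglecf* had 188 and 22 in the controls against 125 and 188 in the mutants, and the chitinase-like gene *Chil3* had 776 and 136 in the controls against 610 and 757 in the mutants. The summed level of the 12 was 5327 and 3186 in the controls against 5321 and 6327 in the mutants, and their median log2 fold change of 0.83 became 0.01 without control replicate 2. T and NK cell markers (656 and 180 in controls, 711 and 714 in mutants) and B cell markers (1463 and 593 in controls, 1208 and 1005 in mutants) were also low in control replicate 2. The part of these cells in the member values was not tested.

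**Figure D4:**
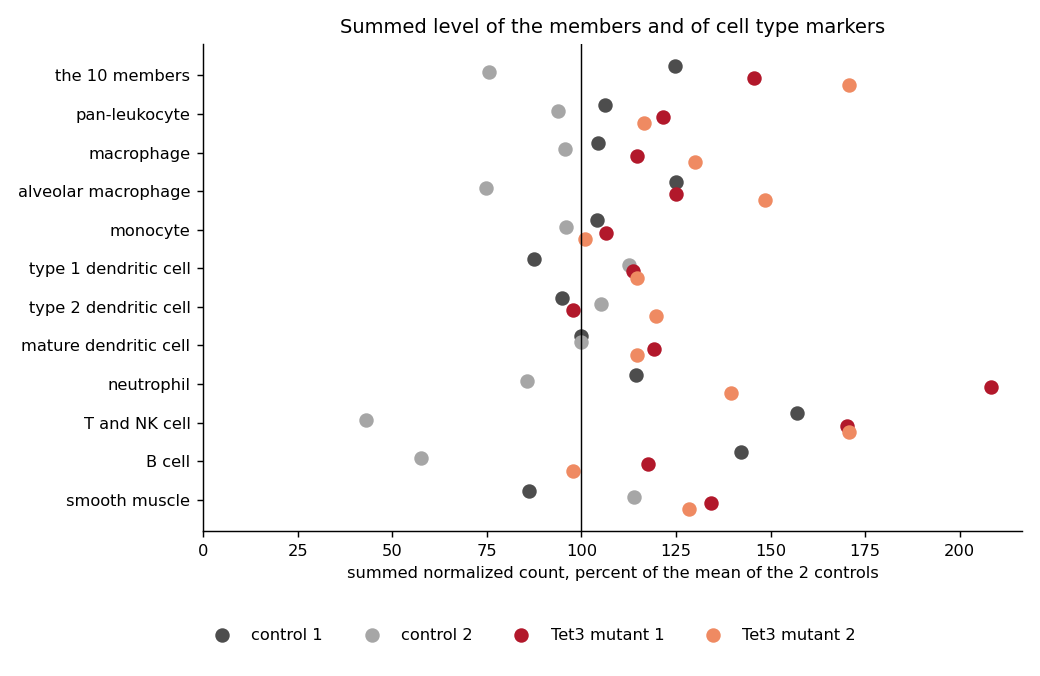
Summed normalized count of the 10 members and of 11 marker lists in each library, as a percentage of the mean of the 2 controls (x axis). Dots are libraries, offset vertically for sight. The members are at 124.6% and 75.4% in the controls and 145.7% and 170.6% in the mutants; alveolar macrophage, T and NK cell and B cell markers are lowest in control replicate 2, whereas type 1 dendritic cell and smooth muscle markers are lowest in control replicate 1.

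The summed level of general leukocyte markers exceeded that of both controls in each mutant. *Ptprc* had 2136 and 1364 in the controls against 2674 and 1885 in the mutants, and the myeloid transcription factor gene *Spi1*, which encodes PU.1, had 336 and 298 in the controls against 408 and 489 in the mutants. The 10 pan-leukocyte markers summed to 7833 and 6913 in the controls against 8961 and 8596 in the mutants, with a median log2 fold change of 0.30. The 15 macrophage markers summed to 10221 and 9359 in the controls against 11227 and 12728 in the mutants. Their median was 0.36, which was 0.20 without mutant replicate 2. Both mutants were above both controls in 11 of these markers, beside 19.6% of all genes fitted. Among these, the colony-stimulating factor receptor gene *Csf1r* had 1484 and 1478 in the controls against 1707 and 1833 in the mutants. Of the 15 macrophage markers, 14 had a log2 fold change above 0. The exception was *Lyz2*, at 1120 and 1361 in the controls against 1197 and 1033 in the mutants (-0.15, SE 0.15). The 10 smooth muscle markers gave a median of 0.52, which was 0.29 without control replicate 1 and 0.85 without control replicate 2. Of 201 list genes in the table, 3 were at 0 in any library, *Clec4f* and the eosinophil and mast cell genes *Il5ra* and *Mcpt4*. When each library was scaled to an equal sum of the macrophage markers, the median of all genes moved to -0.29, the log2 fold change of *Cd207* was 1.56, that of *Clec4d* 1.04, that of *Clec10a* 0.31 and that of *Clec4a3* 0.08. As a percentage of the macrophage sum, *Cd207* was 0.284% and 0.780% in the controls against 1.25% and 1.6% in the mutants, and *Clec7a* was 6.15% and 2.84% in the controls against 5.46% and 5.16% in the mutants.

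Per exon length, the members spanned a wide range of levels. *Clec7a* was highest at 205.2 normalized counts per kb on average over the libraries, followed by *Clec4a3* at 145.4, *Clec4a1* at 102.2, *Clec10a* at 74.8, *Cd207* at 73.3, *Clec4n* at 54.9, *Clec4a2* at 32.2, *Clec4d* at 26.4, *Clec4e* at 14.2 and *Clec4f* at 7.08. The ranges of all neighbours in this order overlapped over the 4 libraries. Within each library, however, *Clec7a*, *Clec4a3*, *Clec4a1* and *Clec10a* kept this order. *Clec4n* was also above *Clec4a2*, and *Clec4d* above *Clec4e*, within each library. The other neighbours changed places between libraries. The place of *Cd207* differed between libraries: it was at 19.1 and 48.0 per kb in controls, below *Clec10a* in both, and at 92.0 and 134.0 in mutants, above *Clec10a* in both.

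**Figure D5:**
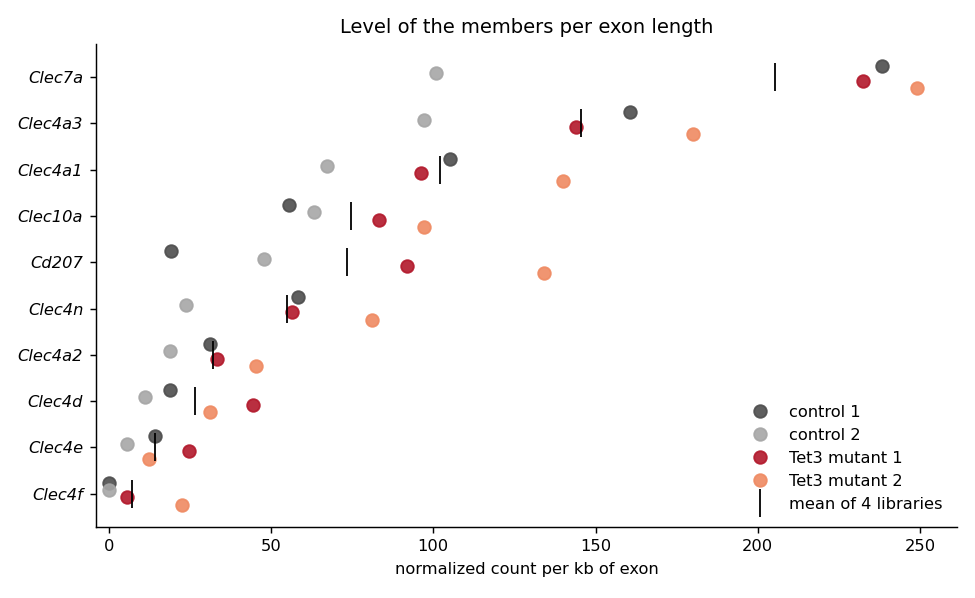
Normalized count per kb of exon (x axis) of each member, ordered by the mean over the 4 libraries (vertical tick). Dots are libraries, offset vertically for sight. *Clec7a* is highest at 205.2 on average and *Clec4f* lowest at 7.08, with both controls of *Clec4f* at 0, and neighbouring genes overlap.

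The signalling chain below these receptors was followed as a list. Of 20 genes in the list of C-type lectin signalling, 14 had a log2 fold change above 0, with a median of 0.27. Both mutants were above both controls in 11, beside 19.6% of all genes fitted. In the limma fit 2 had an unadjusted p under 0.05, both higher in the mutants, beside 3.83% of all genes. The median was 0.17 without control replicate 2 and 0.18 without control replicate 1. The adaptor gene *Fcer1g* had 144 and 154 in the controls against 193 and 286 in the mutants (0.65, SE 0.24, and 0.37 without mutant replicate 2). The kinase gene *Syk* had 1131 and 788 in the controls against 1229 and 1251 in the mutants (0.39, SE 0.19), and its value without control replicate 2 was 0.13. *Card9* had 92 and 98 in the controls against 108 and 135 in the mutants (0.34, SE 0.23, and 0.18 without mutant replicate 2). *Vav1*, an exchange factor of blood cells, had 416 and 352 in the controls against 538 and 532 in the mutants (0.48, SE 0.14). No gene of the list passed the adjusted threshold, the smallest limma adjusted p being 0.681, and with macrophage markers scaled to an equal sum the median of the list was -0.02, where that of all genes was -0.29.

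The list of other C-type lectin receptors, which also took in genes that are no receptors, such as *Clec11a*, showed the same direction in most genes. Of 36 fitted, 32 had a log2 fold change above 0, with a median of 0.37. Both mutants were above both controls in 15, beside 19.6% of all genes fitted. In the limma fit 6 had an unadjusted p under 0.05, all higher in the mutants, beside 3.83% of all genes, with 0 at an adjusted p under 0.05. Of these 36 genes 24 were lower in control replicate 2 than in control replicate 1, and without control replicate 2 the median was 0.12. *Clec5a*, a receptor of monocytes and neutrophils, had 99 and 68 in the controls against 148 and 171 in the mutants (0.95, SE 0.27). *Clec11a*, a secreted growth factor, had 316 and 162 in the controls against 472 and 429 in the mutants (0.99, SE 0.33), with 0.51 without control replicate 2. *Clec4b1*, which lies inside the Dectin-2 cluster, had 16 and 21 in the controls against 24 and 59 in the mutants, and unlike the members of the cluster it was not lower in control replicate 2.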

How the data were processed

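RNA was sequenced from SMCs sorted from the lungs of 2 *Tet3* mutant and 2 control mice, grouped by the genotype in the labels. Per the labels and the methods, ribosomal RNA was depleted, stranded total RNA libraries were read in single-end mode, and the authors processed reads with Trimmomatic 0.36, STAR 2.6.0c (mm10, GRCm38) and featureCounts of Subread 1.6.0, versions as in the submitters' processing notes. Reads of several genes or several places were left out. Strand use was not given in the sources used here, but no member shares exon bases with another gene. The deposited values are a score, counts that the authors scaled with DESeq2 and rounded, so no count test was run. Deposited totals were 6805272 to 7164573 per library. Read numbers were estimated from the spacing of low values, a step tested on simulated libraries. Rounded values below 3 were taken as indistinct from 0. Floors and intervals cover counting error only.

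Log2(value + 1) of 16659 genes with a mean of at least 10 was fitted with limma 3.58.1 in R 4.3.3 with a mean-variance trend, and Benjamini-Hochberg adjusted over all of them at 0.05. Errors of fold changes are moderated standard errors, and with 2 libraries a group they reflect few samples. Exon lengths came from GENCODE M21 (99.8% of the table's identifiers matched). Members and lists were chosen with earlier results of these data known. Genes named were all members, *Tet3*, up to 4 genes per list with a mean of at least 50 and the largest absolute fold change, defining markers of each list, the nearest fitted genes beside *Clec4f* and *Cd207*, and their 5 most similar profiles. *Xist*, *Ddx3y*, *Itgae*, *Runx3*, *Clec9a*, *Lyz2*, *Cd5l*, *Cdh5*, *Mgl2*, *Clec4b1*, *Il5ra* and *Mcpt4* were added after their values were seen. Alternatives were other pseudocounts, filters and scalings, no trend, a replicate block and each library left out. Scaling by marker sums was added after seeing the data.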

Additional observations from a re-analysis of the deposited data

How the results depend on the processing

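With 2 libraries in each genotype, 1 library can set a fold change. No member changed sign under any setting run. Of 78 values under processing settings other than marker sums 76 moved by less than 1 SD between replicates. The exceptions were *Clec4f* at 5.84 with a pseudocount of 0.5 and 2.23 with a pseudocount of 8. The filters, the fit without the trend and the replicate block cannot alter a member's fold change, so those values were fixed in advance. Only other pseudocounts and scalings could move a value. Under the marker-sum scalings 18 of 20 moved by less than 1 SD, *Clec10a* moving from 0.60 to 0.35 and 0.31. The median log2 fold change of the members was 0.30 (without control replicate 2) to 1.23 (without control replicate 1) with 1 library left out, from 0.76, that of the signalling list 0.17 to 0.25, from 0.27, and that of the other C-type lectins 0.12 (without control replicate 2) to 0.54, from 0.37. The signalling median was 0.32 with equal library totals and 0.31 with upper-quartile scaling. With equal pan-leukocyte marker sums it was 0.0194 and that of the other lectins 0.12, and with equal macrophage marker sums they were -0.0158 and 0.0854. These scalings moved the median of all genes to -0.26 and -0.29. Genes called numbered 1 without the trend and under both marker sums, in place of 0, and this was *Hal*, at 279 and 291 in controls and 2 in each mutant. With 1 library left out the number called was 0 each time, in fits that assume the lone library of a genotype to vary like the other genotype.

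Genes with an unadjusted p under 0.05 numbered 1112, of which 57.4% were higher. They numbered 273 to 3366 with 1 library left out, the most without control replicate 1, and 2240 and 2424 under the marker sums. The share higher was 69.2% with equal totals, and 7.77% and 5.65% under the marker sums. A replicate block left the calls at 0, and in that fit 42.8% of 1637 genes were higher. With 2 libraries in each genotype, the deviations of same-numbered libraries reduce to 1 difference per genotype. These had a correlation of 0.13 over 16659 genes. This value cannot show whether same-numbered libraries shared a batch, which was not tested. The cause of the differences between settings was not tested either.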
